A study of Mus musculus with 4 samples.

Results

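The 17 largest T cell clones of the brain library were compared with each other for the genes that differ from clone to clone by more than cells of the same clone differ. A clone here is the set of brain cells with 1 productive TRB chain and the same V gene and CDR3 nucleotides in both receptor chains, taking the TRA chain with the most unique molecular identifiers (UMIs, the molecule counts of droplet sequencing). Clones of at least 10 cells were kept, and the receptors that pair TRBV26 with TRAV7-5 were left out (68 cells, 57 of them in 1 clonotype of that size). This gave 17 clones with 375 cells, 11.95% of the 3138 brain cells with a paired receptor, among 2135 clonotypes of which 1843 had 1 cell. The clones were thus chosen by their receptor and their size, not by their RNA. The smallest clones kept had 11 cells, and 4 clonotypes of 9 cells lay just under the threshold. The clones are numbered by size. Clone 1 had 67 cells, clone 2 had 48, clones 3 to 6 had 28, 26, 25 and 23, clones 7 and 8 had 19 each, clone 9 had 17 and clone 10 had 16. Clones 11 and 12 had 14 cells each, clone 13 had 13, clones 14 and 15 had 12 each, and clones 16 and 17 had 11 each.

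The cells came from wild-type C57BL/6 mice with experimental autoimmune encephalomyelitis (EAE), a disease in which immunization sets off inflammation of brain and spinal cord, taken on day 60 after immunization. CD4+ CD44+ GITR- T cells were sorted from brain and spleen, and each tissue gave 1 RNA library and 1 receptor library made with 5′ droplet chemistry. The number of mice pooled is not stated in the labels, and none of them ties a cell to a mouse, so clone and animal cannot be told apart. No group has a replicate, the cells of a clone share 1 ancestor and 1 library, and no test was made. All intervals cover counting error only.

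A T cell receptor pairs a beta chain (TRB) with an alpha chain (TRA), and the CDR3, the stretch where the rearranged gene segments join, makes each receptor close to unique. Cells with the same CDR3 nucleotides in both chains are therefore taken as offspring of 1 T cell. Activated CD4+ T cells take on effector programs. Th1 cells depend on the transcription factor T-bet (Tbx21) and make interferon gamma. Th17 cells respond to IL-23 and IL-1 and make IL-17A. Both kinds occur in the inflamed central nervous system in EAE, and Th17 cells are known to be able to take on Th1 features. Memory cells that stay in a tissue carry residency genes such as Cxcr6, whereas recirculating cells carry S1pr1, Klf2 and Tcf7.

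The 17 clones used 9 TRBV and 13 TRAV genes in 16 combinations. TRBV26 was found in 4 clones, and TRBV20, TRBV13-1 and TRAV7D-2 in 3 clones each. The receptors that matter most for reading the results follow, as CDR3 nucleotides from the deposited contigs. Clones 3 and 6 carried the same alpha chain (TRAV9-1, TRAJ22) with different TRBV26 beta chains (TRBJ1-2 in clone 3, TRBJ1-1 in clone 6). Capitals mark the bases at which their beta chains differ.
TRA of clones 3 and 6: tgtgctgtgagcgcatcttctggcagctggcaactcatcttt
TRB of clone 3: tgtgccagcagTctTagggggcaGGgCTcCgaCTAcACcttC
TRB of clone 6: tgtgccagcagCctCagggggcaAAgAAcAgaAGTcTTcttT
The beta CDR3s had the same length of 42 bases and shared 29 of them. The alpha chain occurred in 54 paired brain cells with 5 different beta chains, 53 of these cells used TRBV26, and all 54 had a beta CDR3 of 42 bases. TRBV26 was used by 8.0% of all paired brain cells. In spleen the alpha chain was found in 6 cells with 3 beta chains, all TRBV26.

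Clones 2 and 12 were the other pair with the same alpha V and J genes (TRAV7D-2, TRAJ23), and capitals mark the 4 of 39 bases at which their alpha CDR3s differ. Their beta chains used TRBV20 in clone 2 and TRBV19 in clone 12.
TRA of clone 2: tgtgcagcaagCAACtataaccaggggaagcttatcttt
TRA of clone 12: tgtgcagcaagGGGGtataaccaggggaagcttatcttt

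Clones 7 and 9 are shown because each lay whole in 1 cluster of cells, and clone 9 had the highest Th17 level, as given below. Clone 7 used TRBV20 with TRBJ2-5 and TRAV12N-2 with TRAJ7, and clone 9 used TRBV5 with TRBJ2-4 and TRAV8-1 with TRAJ23.
TRB of clone 7: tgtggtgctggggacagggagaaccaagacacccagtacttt
TRA of clone 7: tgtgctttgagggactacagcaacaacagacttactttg
TRB of clone 9: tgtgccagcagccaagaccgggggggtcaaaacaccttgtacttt
TRA of clone 9: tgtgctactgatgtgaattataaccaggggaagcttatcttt
Clone 4 (TRBV20 with TRAV14D-3-DV8) had a second productive alpha chain in 23 of its 26 cells. Joining cells by the beta chain alone put 32 cells in it.

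The clones' summed RNA ranged from 87938 UMIs in clone 15 to 680980 in clone 1, of 44386447 in the whole brain library and 65191435 in the spleen library. The median cell held between 7866 UMIs in clone 15 and 12996 in clone 16. UMI number itself had a variance ratio, the mean square between clones over the mean square within clones, of 2.48. Some of the values below are therefore also given for cells thinned to 4000 UMIs, which left out 7 cells. Where thinning is not named, values are of cells with all their UMIs and can depend on depth. Cd3e had UMIs in 100% and Cd4 in 93.3% of the cells. Of the markers of other cells, Cd8a, Ncr1, Ms4a1, Tmem119, Slc1a3, Mog, Sox13, Cldn5 and both haemoglobin genes were at 0. A summed level of myeloid markers ran from 55.6 to 319 CPM (UMIs scaled to a common total) with a median of 153. Most of this sum was Cst3, with 560 of the 583 UMIs, found in 254 cells of the clones. The sum was highest in clone 13, where 1 cell held 16 of the 19 Lyz2 UMIs. The brain and spleen libraries shared 31 cell barcodes. Of these, 1 lay in the clones, and none had the same TRB in both tissues.

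A minority of genes differed between the large clones beyond the spread within them, led by Ctla4, Cd5, Eomes, Tmem176b and Ccl5. Of 6160 genes with at least 20 CPM, 621 (10.1%) counted as varying, which means a variance ratio of at least 2 on log2(CP10K + 1) per cell (UMIs per 10000, pseudocount 1) both with all clones and without the clone that added most. The median gene had a ratio of 1.23, and 51 genes had a ratio of at least 10. For 17 genes at least 50% of the variance lay between clones. A further 427 genes passed a ratio of 2 only through 1 clone and were not counted. With cells thinned to 4000 UMIs, 357 genes were counted, of which 324 were among the 621.

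**Figure D1:**
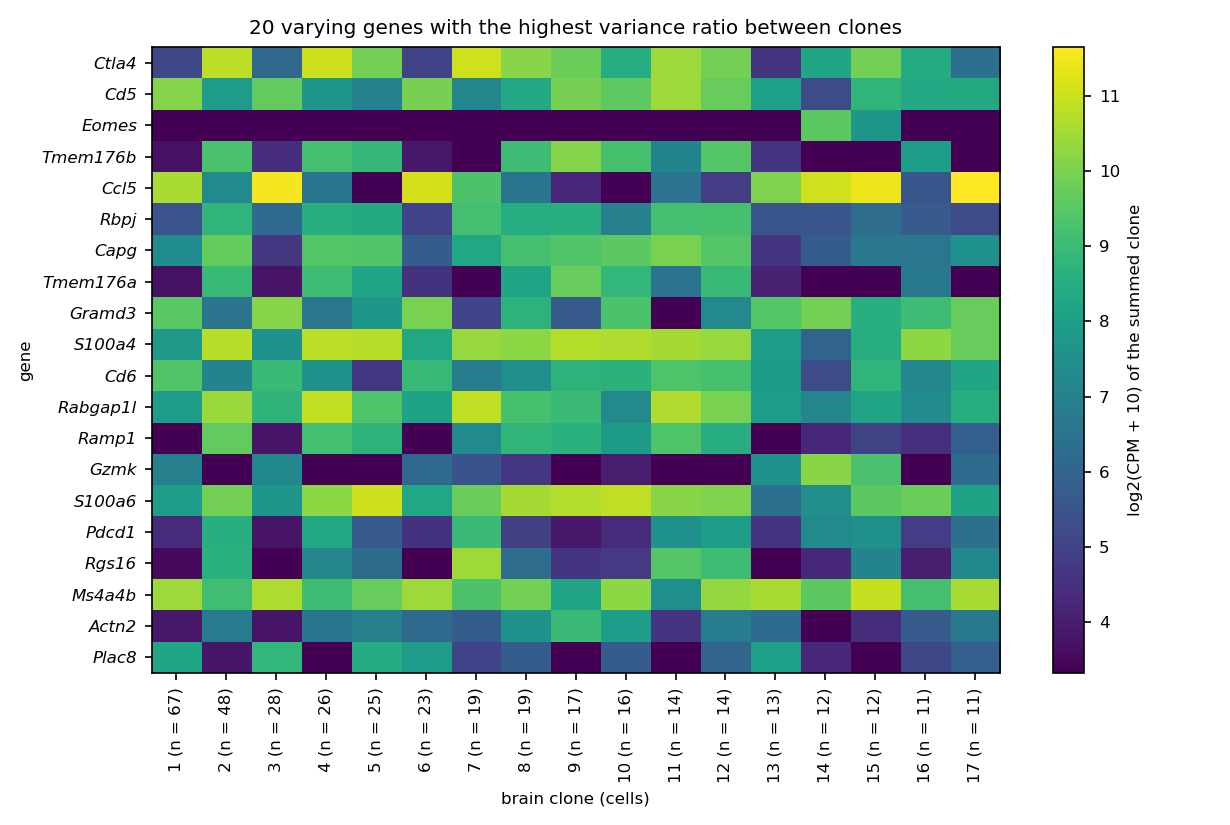
Levels of the 20 genes with the highest variance ratio among those counted as varying, as log2(CPM + 10) of each clone's summed UMIs. Each row is a gene and each column a clone with its number of cells. Clones 1, 3, 6 and 13 share a dark Ctla4, Tmem176b and Ramp1 and a bright Ccl5, and Eomes is above 0 only in clones 14 and 15.

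Ctla4, which encodes an inhibitory receptor of activated T cells, led with a variance ratio of 48.0, and 68.6% of its variance lay between clones. It stood at 14.5 CPM in clone 13, at a median of 861 CPM and at 2096 CPM in clone 7. It was found in 2 of 13 cells of clone 13 and in 9 of 67 cells of clone 1, but in all 19 cells of clone 7, all 26 of clone 4 and all 17 of clone 9. Clones 1, 3, 6, 13 and 17 lay at or below 74.2 CPM, and clones 2, 4, 7, 8 and 11 above 1000 CPM. Cd5 (ratio 44.4) and Cd6 (27.8) encode related surface receptors that dampen signalling through the T cell receptor. Cd5 stood at 27.2 CPM in clone 14, at a median of 325 CPM and at 1369 CPM in clone 11. Cd6 was lowest in clone 5 (15.6 CPM, 4 of 25 cells) and highest in clone 1 (655 CPM, 66 of 67 cells). Clones 2, 4, 5, 7 and 8 were below the median in Cd5 and above it in Ctla4. Clones 11, 12 and 15 were above both medians, and clones 13, 14 and 16 below both.

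Genes of the Th17 program were near 0 in some clones and high in others. Of 11 measured genes of the Th17 list, 10 varied, against 10.1% of all genes tested. All gene lists were chosen with earlier results of these data known. Each list count set beside 10.1%, here and below, is therefore a description and not evidence of enrichment. Tmem176b and Tmem176a, membrane protein genes linked to Th17 cells, had ratios of 39.1 and 32.2. Tmem176b was at 0 in clones 7, 14, 15 and 17, had a median of 124 CPM, and reached 1088 CPM in clone 9, where all 17 cells had it. Il1r1, the receptor for IL-1, was at 0 in 8 clones and highest in clone 9 (473 CPM), followed by clones 4 (356 CPM) and 2 (341 CPM). Ltb4r1, a leukotriene B4 receptor gene (ratio 13.6), was highest in clone 9 too, at 222 CPM. The list's summed level ran from 250 CPM in clone 15 over a median of 1574 CPM to 5901 CPM in clone 9. The clones at or above 2000 CPM were 2, 4, 8, 9, 10 and 12. Ramp1, a co-receptor of the neuropeptide CGRP that stands on none of the lists, had a ratio of 25.7. It was at 0 in clones 1, 6 and 13 and at 788 CPM in clone 2.

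Il17a itself was found in 63 of the 375 cells and in none of the cells of 8 clones (1, 3, 6, 7, 13, 14, 15 and 17). The exact binomial upper limit for the share of cells with an Il17a UMI, which does not limit the share that express the gene, was 5.36% in clone 1 (0 of 67 cells) and 28.5% in clone 17 (0 of 11). In clone 9 it was found in 12 of 17 cells (70.6%, exact binomial interval 44.0 to 89.7%), in clone 4 in 13 of 26 (50%, 29.9 to 70.1%), and in clones 2 and 8 in 41.7% (27.6 to 56.8%) and 42.1% (20.3 to 66.5%). Clones 5, 10, 11, 12 and 16 had it in 1 to 3 cells each. The interval of clone 9 did not overlap those of the 8 clones without Il17a. These clones were picked by these same values and their cells are not replicates, so this is not a test of a difference. A few cells held much of the RNA, with 42.9% of the Il17a UMIs of clone 2 in 1 cell and 67.3% of those of clone 8. Il22 was found in 6 cells in all. Clone 4 had 188 UMIs of it from 3 cells (720 CPM), and its level in that clone therefore rests on these cells.

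Th1 genes showed a different order of the clones. Of 12 measured genes of the Th1 list, 10 varied (10.1% of all genes tested). Ccl5, a chemokine gene of Th1 and cytotoxic cells, had a ratio of 34.4. It was at 0 in clones 5 and 10, at a median of 142 CPM, and at 3209 CPM in clone 17, where 1 cell held 41.9% of the UMIs and without it the level was 2012 CPM. Clones 3, 6, 14 and 15 also lay above 2000 CPM. Il12rb2, the signalling chain of the IL-12 receptor (ratio 12.4), was at 0 in clone 14, at a median of 79.4 CPM and at 445 CPM in clone 6. It was found in 55 of 67 cells of clone 1 and 20 of 23 of clone 6. Cxcr3, a chemokine receptor of Th1 cells (ratio 8.94), varied less, from 68.9 CPM in clone 4 to 557 CPM in clone 15. The list's summed level was lowest in clone 9 (1013 CPM), with a median of 2840 CPM, and highest in clone 7 (10019 CPM). The rank of clone 7 rests on 1 cell. Without each clone's cell with most UMIs of the list it stood at 4458 CPM, below 6 other clones, of which clone 17 was highest at 7008 CPM, and clone 9 was still lowest at 958 CPM.

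At least 1 UMI of Ifng was found in every clone, in 245 cells in all. In the brain cluster led by Klf2, Ccr7 and Lef1, genes of naive and central memory T cells, 2 of 332 cells (0.602%) had an Ifng UMI and 0 had one of Il17a, at a median of 10017 UMIs per cell. This was the lowest Ifng share of any cluster. Cluster 10, led by Ctla4, Ikzf2 and Foxp3, had 9.77%, and cluster 11, led by Klf2 and Tcf7, had 22.6%. Clusters were built from expression, so these shares do not give a background level for Ifng. With 2 UMIs required, 14 clones had Ifng in at least 10% of cells, against 16 with 1 UMI. Its share of cells ran from 9.09% in clone 16 (1 of 11, interval 0.230 to 41.3%) over a median of 62.5% to 95.7% in clone 6 (22 of 23, 78.1 to 99.9%). By CPM clone 7 stood highest (6032 CPM, 18 of 19 cells), but 969 of its 1088 UMIs (89.1%) lay in 1 cell. Without the cell with most Ifng UMIs in each clone, clone 7 stood at 725 CPM, and clones 13 (1192 CPM) and 6 (1160 CPM) were highest. The median over the clones was 384 CPM with all cells, and the lowest value was 12.3 CPM in clone 16. Clones 9, 14 and 16 had it in 11.8, 25 and 9.09% of cells. The same clone could hold cells with either cytokine. In clone 2, 13 cells had Il17a only, 23 had Ifng only, 7 had both and 5 had neither, and in clone 4 the numbers were 9, 7, 4 and 6. Both cytokines together were found in 15 of the 375 cells, in clones 2, 4, 8, 9, 12 and 16. By contrast, 59 of 67 cells of clone 1 and 22 of 23 of clone 6 had Ifng and none had Il17a.

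**Figure D2:**
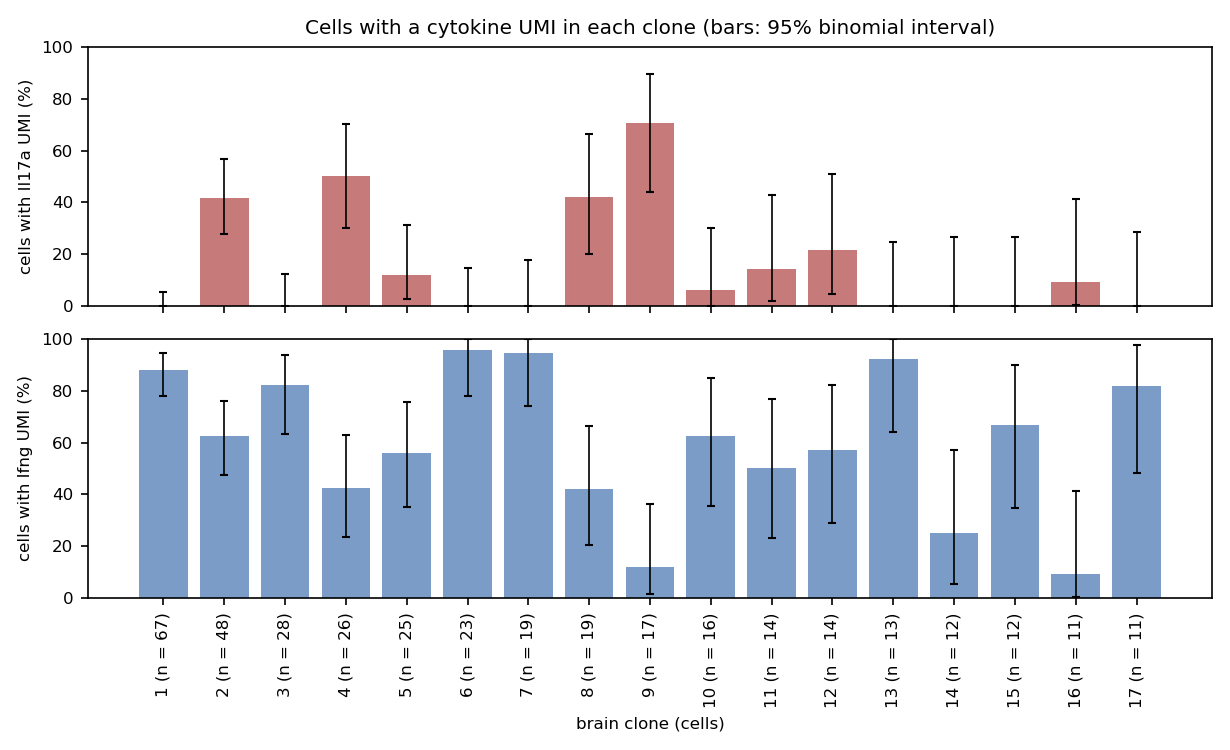
Share of cells (%) with at least 1 UMI of Il17a (top) and Ifng (bottom) in each clone, with exact 95% binomial intervals. Il17a is at 0 in 8 clones and reaches 70.6% in clone 9, whereas Ifng is present in all 17 clones.

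Of other cytokine genes, 6 of 9 measured list members varied (10.1% of all genes). Tnfsf11, which encodes RANKL (ratio 12.6), ran from 7.26 CPM in clone 13 over a median of 207 CPM to 648 CPM in clone 9, where all 17 cells had it. Tnfsf8, the CD30 ligand gene (9.86), was at 0 in clones 6, 13 and 15 and at 1076 CPM in clone 4. Csf1, the macrophage colony-stimulating factor gene (6.09), was at 0 in 9 clones and highest in clone 12 (192 CPM, 8 of 14 cells). Lta, lymphotoxin alpha (5.40), stood at 409 CPM in clone 10, where 1 cell held 74.7% of the UMIs and without it the level was 112 CPM. Csf2, which encodes GM-CSF, was found in only 39 cells. It was present in at least 10% of cells in 7 clones, but in 4 when cells were thinned or 2 UMIs were required. Il2 was found in 34 cells and Tnf in 266, in all clones.

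Inhibitory receptors and genes listed as regulatory had the largest between-clone share of the lists. Of the inhibitory receptor list, 6 of 8 measured genes varied (10.1% of all genes), and 69.8% of the variance of its summed level lay between clones. That level ran from 190 CPM in clone 6 over 1192 CPM at the median to 3770 CPM in clone 7. Ctla4 belongs to this list and to the regulatory list, and makes up much of both sums. Pdcd1, which encodes PD-1 (ratio 22.5), had a median of 43.0 CPM. It stood at 3.80 CPM in clone 3 and at 499 CPM in clone 7 (17 of 19 cells), with clones 2 (367 CPM), 4 (314 CPM) and 12 (241 CPM) next. Lag3, an inhibitory receptor gene (11.3), was at 0 in 7 clones and highest in clone 7, at 255 CPM. Tox, a factor of chronically stimulated T cells (13.4), was highest in clone 15, at 546 CPM, and lowest in clone 10, at 5.45 CPM. Clone 10 thus lay below the median of the clones in Ctla4, Pdcd1, Lag3 and Tox although its Th17 level was above 2000 CPM. Of the regulatory list, 4 of 6 measured genes varied, read against the same 10.1%. These were Ctla4, Capg, Izumo1r and Il2ra.

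Clone 11 was set apart by Ikzf2 and Izumo1r. Ikzf2, which encodes Helios, was found in all 14 of its cells at 395 CPM, against 9.46 CPM in the other clones together, a ratio of 41.8 (26.8 to 65.9). Its variance ratio was 24.2 with all clones and 1.77 without clone 11, so it was not counted as varying. Izumo1r, the folate receptor 4 gene, was found in 12 of these 14 cells at 454 CPM, 11.6-fold (8.46 to 15.7) over the others, and in clone 7 at 250 CPM. Gramd3, by contrast, had no UMI in clone 11, where 64.0 UMIs correspond to the median level of the other clones. Of 7 measured follicular helper genes, 5 varied (10.1% of all genes), and their sum was highest in clone 7 (3000 CPM), followed by clone 11 (2562 CPM). Rgs16, a regulator of G protein signalling, ran from 0 in clones 3, 6 and 13 over a median of 66.4 CPM to 1392 CPM in clone 7.

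Eomes and Gzmk were highest in clones 14 and 15. Eomes, a T-box transcription factor of cytotoxic and memory T cells, was found in 10 of 12 cells of clone 14 (735 CPM) and 6 of 12 cells of clone 15 (205 CPM). In the other 15 clones no UMI of it was counted. Gzmk, which encodes granzyme K (ratio 24.96), was highest in the same clones, at 1152 and 603 CPM. It was at 0 in 7 clones and had a median of 14.8 CPM, but clones 1 (38 of 67 cells, 115 CPM), 3, 6, 13 and 17 carried it at lower levels. Esm1 was found in 10 of 12 cells of clone 14 at 363 CPM, 56.4-fold (33.2 to 97.7) over the others, and in clone 15 at 148 CPM. The costimulatory receptor gene Cd27 was highest in clone 15 (250 CPM, 9 of 12 cells). Il17a was at 0 in both clones, and Tbx21 was at 0 in clone 14, where 12.8 Tbx21 UMIs correspond to the median level of the others. Cd8a was at 0 in both clones. In the cytotoxic and NKG2 list, 8 of 9 measured genes varied, against 10.1% of all genes. Not every member was high in these clones. Ctsw, a cathepsin gene, stood at 408 and 318 CPM against a median of 610 CPM, and clone 7 had a higher list sum than clone 15 (1863 and 1672 CPM). Klrc1, which encodes an NKG2 receptor, was at 0 in 7 clones, 14 and 15 included, and reached 290 CPM in clone 12 (12 of 14 cells) and 266 CPM in clone 7. Clone 16 had the lowest summed level of the list at 197 CPM, against a median of 1378 CPM. Nkg7, a gene of cytotoxic granules, had 1 UMI in clone 16 (6.14 CPM) and 632 CPM in the others, a ratio of 0.00973 (interval 0.000246 to 0.0542).

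Residency and recirculation genes also differed. Of 18 residency genes measured, 12 varied, and of 9 recirculation genes 8 did, again against 10.1%. Rgs2, a regulator of G protein signalling, stood at 70.5 CPM in clone 1 and 1203 CPM in clone 7 (median 651 CPM). The residency sum was highest in clone 7 too (7746 CPM). Cd69, a member of the list that counted as varying (ratio 4.19), was however lowest in clone 7 (194 CPM, 10 of 19 cells, median 661 CPM). Bhlhe40, a transcription factor of cytokine-producing and resident T cells, ran from 301 CPM in clone 16 to 1762 CPM in clone 8. Cxcr6, a receptor linked to residency, was at 63.5 CPM in clone 14 and 141 CPM in clone 16, with a median of 680 CPM and 1038 CPM in clone 12. Other residency genes of clone 16 were not low. Rgs2 (811 CPM), the integrin gene Itgb1 (940 CPM) and Cd69 (682 CPM) lay above their medians of 651, 284 and 661 CPM. Nr4a2 (49.2 CPM) lay below its median of 204 CPM. The residency sum of clone 16 was 4866 CPM against a median of 5275 CPM. Clone 16 carried the highest levels of 2 recirculation genes, Tcf7 (541 CPM) and S1pr1 (301 CPM), the receptor for exit from tissue, against medians of 169 and 20.6 CPM. Clone 17 had the highest Klf3 (408 CPM, 9 of 11 cells). It also had the highest Itgb1, which is on the residency list (1289 CPM against a median of 284 CPM). Tcf7 was at 0 in clone 7, where 30.9 UMIs correspond to the median level of the others. The recirculation sum was lowest in clone 2 (734 CPM) and highest in clones 17 and 16 (2300 and 2298 CPM).

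Chemokine receptors and integrins varied gene by gene. Of 15 measured, 13 varied (10.1% of all genes), but the variance ratio of their sum was 2.14, and 1.69 with thinned cells. Ccr8 was highest in clone 11 (403 CPM) and at 0 in clones 6 and 13. Ccr4 was highest in clone 16 (190 CPM) with a median of 9.07 CPM. Itga4, the alpha chain of the integrin VLA-4 used for entry into the central nervous system, was found in all clones. It ran from 98.1 CPM in clone 10 over 341 CPM to 654 CPM in clone 3.

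Genes of T cell receptor signalling varied in 9 of 12 cases (10.1% of all genes), led by Cd5 and Cd6. Cd247, the zeta chain of the CD3 complex (ratio 10.2), was 970 CPM in clone 7 and 146 CPM in clone 11, with a median of 346 CPM. Among the sort markers, Cd44 ran from 141 CPM in clone 3 to 482 CPM in clone 4. Cd4 ran from 203 CPM in clone 13 to 726 CPM in clone 7, and both counted as varying. Tnfrsf18, which encodes GITR, was present in all clones and did not count as varying.

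The remaining lists hold genes of cell activity, and each count of them stands against 10.1% of all genes. Of 10 measured glycolysis and hypoxia genes, 6 varied, led by Hif1a (198 CPM in clone 3, 538 CPM at the median, 817 CPM in clone 8). Of 11 interferon-induced genes, 6 varied, and their sum was highest in clone 15 (6084 CPM) against a median of 1591 CPM. Ifi27l2a, an interferon-induced gene, was highest in clones 15 (2422 CPM) and 9 (1997 CPM). The early response list, which holds genes induced by receptor stimulation, had 8 of 10 measured genes varying, but 4.79% of the variance of its sum lay between clones. Of 16 measured genes of dissociation stress, 5 varied, and the ratio of their sum was 1.65, or 0.707 without clone 16, which was lowest at 9529 CPM. In the cell cycle list 1 of 5 measured genes (Hmgb2) varied. Clone 16 had the highest cell cycle level (3938 CPM against a median of 871 CPM), of which 1 cell held 73.2%, and without that cell it stood at 1295 CPM. Its histone gene H1f5 was 31.7-fold over the others and 3.91-fold without the cell that held most of it. Near-identical histone genes can share reads.

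**Figure D3:**
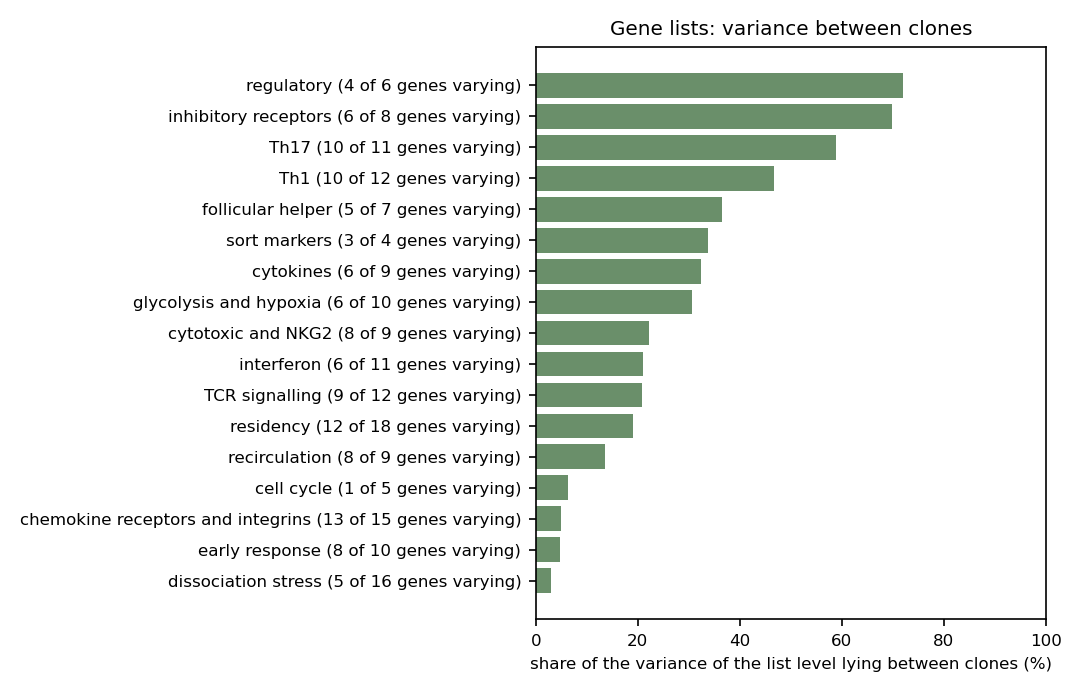
Share (%) of the variance of each list's summed level per cell that lies between clones, with the number of varying genes beside each list. Regulatory and inhibitory receptor lists lie near 70%, and dissociation stress lies at 2.94%.

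Each clone was also set against the other 16 by its summed UMIs. A gene counted as higher when its CPM was at least 2-fold that of the others with an exact 95% interval above 1, at least 50 CPM, and a ratio still at least 2 without the clone's highest cell. It counted as lower at a ratio of at most 0.5 with an interval below 1. Cells of a clone differ by more than counting error, so these counts partly hold that spread, are given as a description and are not ranked. Beside each are the share of the genes tested and the genes named for the clone, with the number of cells that had them.

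In clone 1, 24 genes (0.654%) were higher and 150 (4.09%) lower. Il12rb2 was 2.76-fold higher (2.36 to 3.23) and found in 55 of 67 cells. Clone 3 had 37 genes (0.97%) higher and 182 (4.77%) lower, with Ccl5 3.82-fold higher (3.53 to 4.14) in 27 of 28 cells. Clone 6 had 33 (0.87%) higher and 185 (4.87%) lower, with Hdgfl3 4.50-fold higher (2.79 to 7.02) in 15 of 23 cells. Clone 13 had 67 (1.66%) higher and 232 (5.76%) lower. Its Unc5cl was 13.8-fold higher (7.23 to 25.6, 8 of 13 cells), and C1qc, a macrophage gene, was found in 3 of its cells including the cell with Lyz2, with 80% of the UMIs in 1 cell. Clone 17 had 94 (2.39%) higher and 159 (4.04%) lower, with Klf3, a factor of quiescent lymphocytes, 7.80-fold higher (5.49 to 10.9, 9 of 11 cells), or 4.56-fold without its highest cell.

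Clone 2 had 93 genes (2.44%) higher and 63 (1.65%) lower. The growth factor gene Areg was 8.24-fold higher (6.03 to 11.3) in 13 of 48 cells, or 4.28-fold without its highest cell, and Ttn 14.1-fold (9.22 to 21.8) in 19. Clone 4 had 89 (2.31%) higher and 113 (2.94%) lower, with Penk, the precursor of enkephalins, 16.0-fold higher (6 of 26 cells), or 3.32-fold without its highest cell. Clone 8 had 43 (1.15%) higher and 98 (2.61%) lower, with Il23r, the IL-23 receptor, 5.67-fold higher (3.96 to 7.98, 6 of 19 cells). Clone 9 had 89 (2.31%) higher and 160 (4.15%) lower, with Clec12a, a lectin receptor gene, 23.8-fold higher (12.5 to 46.4, 11 of 17 cells). Clone 12 had 70 (1.81%) higher and 119 (3.08%) lower, with Csf1 5.87-fold higher (3.82 to 8.77, 8 of 14 cells), or 3.86-fold without its highest cell.

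In clone 5, 53 genes (1.4%) were higher and 189 (4.99%) lower. Cntn1, which encodes the adhesion molecule contactin 1, had 18 UMIs in 12 of its 25 cells against 2 UMIs in all other clones, a ratio of 126 (30.2 to 1119). Clone 10 had 44 (1.17%) higher and 190 (5.07%) lower, with Socs2, a suppressor of cytokine signalling, 5.18-fold higher (3.54 to 7.41, 9 of 16 cells). Clone 11, described above for Ikzf2, had 172 (4.09%) higher and 161 (3.83%) lower, or 95 and 220 when scaled by TMM factors. Clone 7 had 133 (3.36%) higher and 125 (3.15%) lower, with the chemokine gene Ccl4 21.0-fold higher (16.2 to 27.2, 8 of 19 cells). All 25 UMIs of Klrh1 lay in 4 cells of clone 7, at least 169-fold higher than the 3 counts that a count of 0 allows over all other clones. Klrh1 and Klra3 (7 of 19 cells) belong to a family of similar receptor genes, so their assignment is uncertain.

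Clone 14 had 103 genes (2.62%) higher and 309 (7.85%) lower, and clone 15 had 160 (4%) higher and 225 (5.62%) lower. Eomes, Pard3 and Esm1 led clone 14, and Cd27 was 20.4-fold higher (11.7 to 34.6) in clone 15. Pard3 had 8 UMIs in 2 of the 12 cells of clone 14, 75% of them in 1 cell. Clone 16 had 135 (3.45%) higher and 266 (6.8%) lower. Of its leading genes, H2ac8 and H1f5 lay in 5 of 11 cells each and Ggt1 in 4. Il17a was the leading lower gene in 8 clones (1, 3, 6, 7, 13, 14, 15 and 17). It was at least 136-fold lower in clone 1 and at least 14.8-fold lower in clone 15, counting 3 UMIs per clone as the limit of a count of 0. Ccl5 led the lower genes of clones 5, 8, 9, 10 and 12.

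The whole profiles gave groups of clones. Over 3417 genes, each centred on the mean of the clones, the highest of the 136 pairwise correlations was that of clones 1 and 3 (Pearson r = 0.61). Clones 2 and 4 followed (0.58), then 1 and 6 (0.55), 3 and 6 (0.46) and 1 and 13 (0.43). The lowest value was that of clones 1 and 2 (-0.53). These values describe clones of 1 library that differ in cell number and so in counting noise, and genes are not independent. Clones 3 and 6, which share an alpha chain, came the fourth, and each was closer to clone 1, whose receptor shares neither V gene with theirs. Clones 2 and 12, with alpha chains that differ at 4 bases, came the sixth (0.38).

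Clustering all brain cells without receptor genes gave 14 clusters, of which 12 held cells of the large clones. In 14 of the 17 clones at least 50% of the cells lay in 1 cluster, with a median share of 54.5%. With another random seed these values were 15 clones and 69.2%, and at a resolution of 0.5 they were 16 clones and 92.9%. All 19 cells of clone 7 lay in cluster 2, led by S100a4, Nkg7, Bhlhe40, Ctsw and Ifng, where 18.0% of the other clones' cells lay. All 17 cells of clone 9 lay in cluster 4, led by Tmem176b and with Il17a among its first genes (20.4% of the others). Cluster 1, led by Ccl5, Dusp2 and Ifng, held 58 of 67 cells of clone 1, 20 of 28 of clone 3 and 22 of 23 of clone 6. Cluster 6, led by Ccl5, Gzmk, Nkg7 and Eomes, made up 2.40% of the brain cells clustered and held 10 of 12 cells of clone 14 and 7 of 12 of clone 15. Other clones lay in several clusters. Clone 2 had 24 cells in cluster 4 and 21 in cluster 2, clone 4 had 14 and 7, clone 5 had 7 and 15, and clones 8, 11 and 12 were likewise divided over these clusters. Clone 10 had 7 cells each in clusters 4 and 5, and clone 16 had 6 of 11 cells in cluster 3. Clusters were built from these same genes, so they restate the differences above and do not add support.

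**Figure D4:**
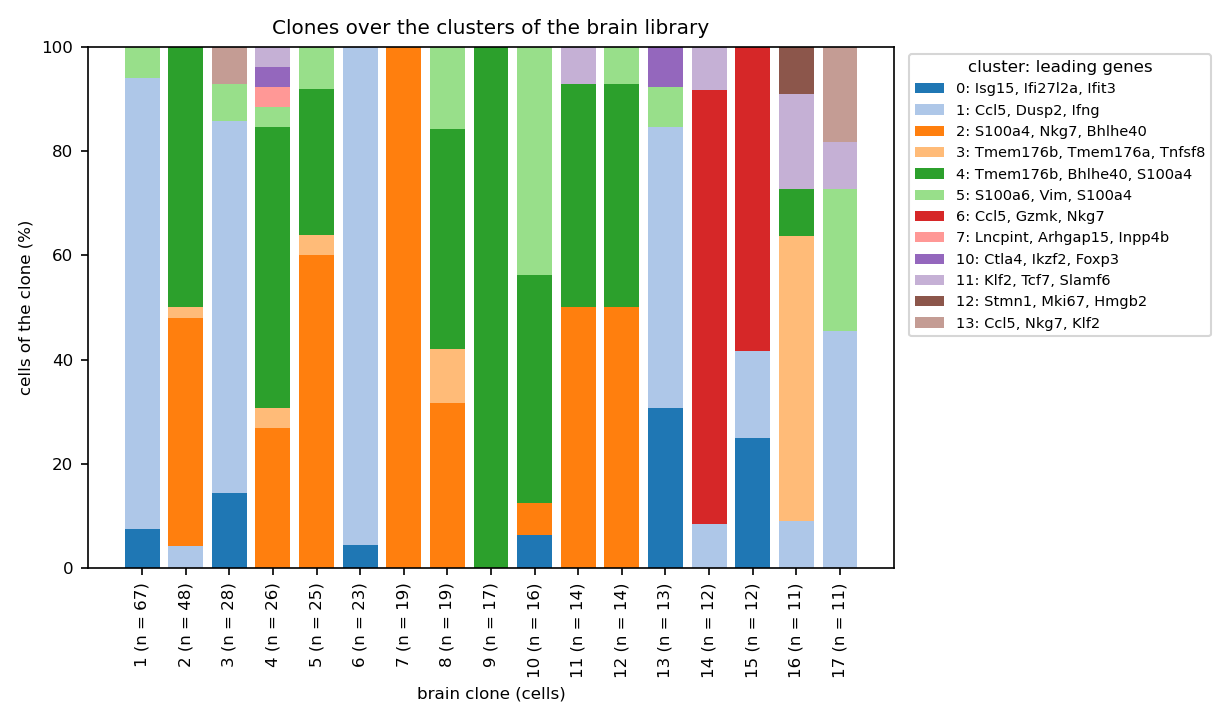
Cells of each clone (%) over the clusters of the brain library, with the 3 leading genes of each cluster in the legend. Clones 7 and 9 lie wholly in clusters 2 and 4, clones 14 and 15 mainly in cluster 6, and clones 2, 4, 5, 8, 11 and 12 over both 2 and 4.

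The same receptors were rare in spleen. Of the 17 clones, 8 had spleen cells, 21 cells in all among 6749 paired spleen cells, and 9 had none. Clone 16 had 8 spleen cells, clones 3 and 10 had 3 each, clones 6 and 17 had 2 each, and clones 2, 7 and 11 had 1 each. Only clone 16 reached 5 cells, so the order of the clones could not be compared between tissues. In its 8 spleen cells (88012 UMIs) Tmem176b stood at 568 CPM (50 UMIs, 8 cells) against 240 CPM in brain, and Rgs2 had no UMI against 811 CPM in brain. Ctla4 had 1 UMI in spleen (11.4 CPM) against 338 CPM in brain. S100a4 was higher in spleen, at 2704 CPM against 1192 CPM.

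In 3 large clones a gene on the Y chromosome had no UMI, a pattern described here because it was noticed in the values. Ddx3y, an RNA helicase gene, had 0 UMIs in clones 7 and 8, where 25.6 and 28.9 UMIs correspond to the median level of the other clones. In the other 15 clones it ran from 79.6 CPM in clone 15 to 211 CPM in clone 13. Eif2s3y, a translation initiation factor gene, had 0 UMIs in clone 16 and 1 UMI in clone 12, where 19.9 and 19.8 UMIs correspond to the median level of the others. It ran from 80.4 to 241 CPM in the other 15 clones. Uty and Kdm5d, also on the Y chromosome, were found in all 17 clones, clones 7, 8, 12 and 16 included, and Xist had 1 UMI in the whole brain library. The clones that lacked Ddx3y carried Eif2s3y (29 and 17 UMIs), and clones 12 and 16 carried Ddx3y (33 and 22 UMIs). Among 45 smaller clones of 5 to 9 cells (286 cells), Ddx3y was at 0 in none and Eif2s3y in 4.

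**Figure D5:**
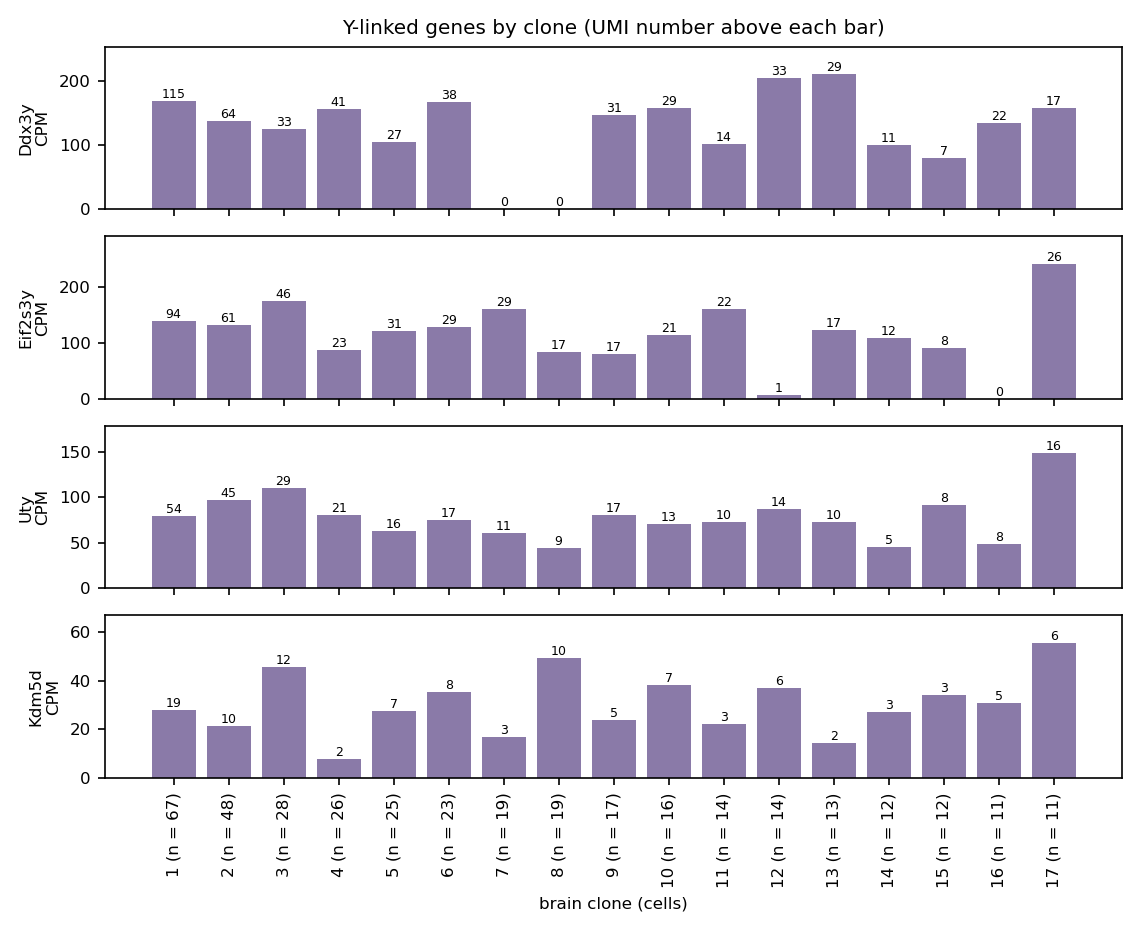
CPM of 4 Y-linked genes in each clone's summed UMIs, with the number of UMIs above each bar. Ddx3y is at 0 in clones 7 and 8 and Eif2s3y at 0 or 1 UMI in clones 16 and 12, whereas Uty and Kdm5d are present in every clone.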

How the data were processed

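RNA and T cell receptor libraries of brain and spleen were analysed, 1 of each per tissue, with no replicates. The deposited matrices hold raw UMI counts per gene and barcode, and the deposited contig tables hold V, J and CDR3 calls with UMI counts per contig. The submitters' processing notes name Cell Ranger 9.0.0 and several genome builds, the latter with no role, so no coordinates are given. Names of genes are those of the deposited files.

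A barcode was kept if it had 500 or more genes, 1000 or more UMIs and no more than 10% of UMIs from mitochondrial genes. This left 4143 of 4277 in brain and 8474 of 8707 in spleen. Levels are CPM of the UMIs summed over a clone's cells. The variance ratio used log2(CP10K + 1) per cell, for genes of at least 20 CPM over the clones. The 6160 genes tested exclude those of antigen receptors, immunoglobulins, mitochondria, ribosomes, haemoglobin and the sex chromosomes' marker genes, as well as gene models without a name. Ratios of summed counts have exact conditional binomial 95% intervals, and shares have Clopper-Pearson intervals. Clusters were made with scanpy 1.11.5 and igraph 0.11.9 on 3964 brain cells (179 with more than 1 TRB or more than 2 TRA chains left out as likely doublets), with 2000 variable genes, 30 components, 15 neighbours and Leiden resolution 0.8. No other doublet caller was run. The scripts were tested on simulated data. That check showed that spread between cells of a clone alone makes some genes pass the clone against others rule.

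Named genes are the 20 with the highest variance ratio among those counted as varying, up to 3 higher and 1 lower per clone, up to 4 of each list, and the sort markers. Cytokines, Y-linked genes and any gene named outside this rule were chosen with their values in view. Some genes that meet the rule are not reported here. The clones and all gene lists were chosen with earlier results of these data known. Alternatives covered scale, pseudocount, thinning, filters, clone definition, TMM factors (edgeR 4.0.16), median-of-ratios size factors and clustering settings.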

Additional observations from a re-analysis of the deposited data

How the results depend on the processing

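The 621 varying genes became 357 with cells thinned to 4000 UMIs, 344 of 1619 genes tested at 100 CPM or more, 324 without the 158 cells that had a Mki67 or Top2a UMI, and 302 at a ratio of at least 3. Leaving out each clone in turn gave 562 to 643. In 295 alternatives of the 20 leading genes in which they could be tested, the ratio was below 2 in 0, both with all clones and without the clone that adds most. These genes were chosen for the highest ratios in the same cells, so this was likely from the start. It says nothing about the other varying genes. Some of the 20 fell under the CPM threshold of a setting and were not tested there. At 100 CPM these were Eomes (25.8 CPM), Gzmk (91.2 CPM) and Actn2 (93.0 CPM), which left 17 of the 20, all counted. Likewise 19 of the 20 were tested and counted over the clones of at least 20 cells and without the cells with Mki67 or Top2a. Without clone 14 and without clone 15, settings outside the 295, 19 of the 20 were counted. The totals over clones of 1439 higher and 2926 lower genes became 395 and 1594 at 3-fold, 687 and 1327 at 100 CPM, and 446 and 926 over the clones of at least 20 cells. TMM factors ran from 0.908 in clone 5 to 1.09 in clone 11, and under them clone 11 had 95 higher and 220 lower genes in place of 172 and 161. Of 51 list alternatives, 5 changed side of a ratio of 2: dissociation stress on the mean scale (2.02), chemokine receptors and integrins on that scale (1.87) and thinned (1.69), and early response thinned (1.88) and without clone 1 (1.94). The number of clones with Csf2 in at least 10% of cells fell from 7 to 4 when thinned and to 4 at 2 UMIs. Clones with enough spleen cells numbered 3 at 3 cells and 0 at 10. Leaving out the spleen clone farthest from the median was not run, since 1 clone had 5 cells. Leaving out the cell with macrophage genes, chosen after seeing the data, gave 618 varying genes. For each of 136 named genes and lists separately, the cell of each clone with most UMIs of that gene or list was left out. This alternative, also chosen after seeing the data, lowered the highest level by 1.5 times or more for 35 of the 136, and put another clone highest for 19. At resolution 0.5 the median share of a clone in its main cluster was 92.9%, and 16 clones had at least 50% of their cells in 1 cluster. The cause of these shifts was not tested, apart from the fewer genes or cells that some alternatives leave. A gene at 0 allows 3 UMIs in any clone, which is most in CPM where the summed UMIs are fewest (87938 in clone 15). No paired analysis was possible because each group holds 1 library.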

Other observations

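Genes that were missing from a single large clone were counted as a description. Over 4811 genes with at least 20 CPM in 13 or more clones, 45431 pairs of gene and clone corresponded to at least 12 UMIs at the median level of the other clones, and 26 of these pairs, from 21 genes, had 0 UMIs. They included Ccl5 in clones 5 and 10, Gramd3 in clone 11, Tnfsf8, the CD30 ligand gene, in clones 6, 13 and 15, Tcf7 in clone 7 and Tbx21 in clone 14. Slamf1, a receptor of the SLAM family, was missing in clone 14, where 18.4 UMIs correspond to the median level of the others. Zeb2, a transcription factor of effector T cells, was missing in clone 16 (14.98 UMIs). Rb1, the retinoblastoma tumour suppressor gene, was missing in clone 11 (12.8 UMIs). Whether these absences would recur in other cells of the clones was not tested.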
